A study of Mus musculus with 71 samples.

Results

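The genes described here encode proteins that store, silence or break down maternal mRNA in the mouse oocyte. They were chosen by name, as Zar1, Zar1l, Ybx2, Lsm14b, Eif4e1b, Eif4enif1, Pabpc1l, Patl2, Zfp36l2 and Cnot6l, and 9 of these 10 had a row among the 15140 genes of the table used. Zar1l was not analysed here. A growing oocyte makes far more mRNA than it translates, and holds the surplus in particles whose proteins coat the message, occupy its cap or bind its poly(A) tail. Transcription stops in the fully grown oocyte, so the meiotic divisions and the first embryonic divisions run on this store, which is activated and degraded in a set order after the germinal vesicle (GV) breaks down. In mice, loss of Zar1, Ybx2, Pabpc1l or Patl2 has been reported to impair female fertility.

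RNA was measured in poly(A)-selected, strand-specific libraries from mouse oocytes and oocyte-like cells of a C57BL/6 X 129 background, in TPM, which are counts per length scaled to the same total in each library. The knockout groups were oocytes grown in reconstituted ovaries, taken on day 11 (Lhx8, Figla, Stat3 and Sub1) or day 13 (Nobox, Sohlh1, Tbpl2, Dynll1, Ybx3, Ccnk, Kdm1b, Thap7, Noto, Foxr1, Mef2b, Sfr1, Hes6, Ell3 and Tcf25), and set against wild-type oocytes of the same day. All of these, wild type included, carried 2 reporters, Blimp1-Venus and Stella-CFP, that light up germ cells, came from embryonic stem cells by way of germ cell-like cells joined with female gonadal somatic cells of embryos, and were sorted for the Stella-CFP signal. Directly induced oocyte-like cells (DIOLs), of a genotype given as MGA8, were made from stem cells with the ligand Shield1, in aggregates that for the fully grown and matured cells also held gonadal somatic cells of embryos. The DIOL groups were DIOLs.S of days 1, 3, 5, 7 and 14, DIOLs of days 5, 10, 15 and 25, and matured DIOLs at metaphase II (MII). The letter S is not explained in the labels, and neither the induced factors nor the number of knockout clones is named there. Meiotically competent and incompetent GV oocytes, with both reporters, came from the animal. The names of their columns in the table carry 3w for competent and 2w for incompetent oocytes, which the labels do not explain, so that if this is an age in weeks, age and competence cannot be told apart. In all 68 libraries in 33 groups were used, with n = 3 in each GV group and n = 2 in every other group.

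The number of genes with at least 1 TPM ran from 8011 to 10596 over the libraries; read totals cannot be had from TPM, so depth is unknown. The genes of the table used held a share of 0.521 to 0.708 of each library's TPM total, so every share or median over all genes is over these genes only. Replicates correlated across genes at 0.967 or more, apart from the Sohlh1 knockout pair at 0.873. Among 5114 genes with a median of at least 20 TPM, 68 and 169 were listed at 0 in the Sohlh1 knockout libraries and 50 and 51 in those of the Figla knockout. The counts were 35 and 26 in Lhx8, 25 and 33 in Stat3 and 17 and 22 in Nobox knockout libraries. Those labelled Sub1 knockout had 27 and 41 and matured DIOLs 38 and 15, against 5 and 7 in wild type of day 11. A 0 in any of these libraries is thus given only as listed. The labels do not say whether replicates were separate cultures, so the spread behind each p-value may be technical. The deleted gene read 43.7 and 47.8 TPM in Lhx8 knockout libraries against 374 and 287 in wild type, and 21.3 and 24.6 TPM in Dynll1 knockout libraries against 401 and 424. Ccnk read 178 and 163 TPM in its knockout libraries against 164 and 172 in wild type, and Sub1 read 345 and 316 TPM against 448 and 481, so both are called libraries labelled as knockouts below. Thap7 (105 and 97.4 TPM against 177 and 165 TPM) and Sfr1 (414 and 438 TPM against 800 and 808 TPM) were lower in their knockout libraries than in wild type, but still present. Tbpl2 (59.75 and 70.6 TPM against 210 and 212 TPM) and Stat3 (74.0 and 68.65 TPM against 309 and 328 TPM) were likewise lower but still present. Sohlh1 was listed at 5.18 and 0 TPM in its knockout libraries against 908 and 911 TPM in wild type. Nobox, Figla, Ybx3 and some other deleted genes were not analysed here. Oocyte markers were present: in wild type of day 13 all 7 (Ddx4, Dazl, Zp3, Gdf9, Padi6, Npm2 and Oosp1) were at 1 TPM or more and summed to between 53150 and 54380 TPM.

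The 9 genes lie on 5 chromosomes of GRCm38 (GENCODE M21). Zar1 occupies chromosome 5 from 72576806 to 72581254, Eif4e1b chromosome 13 from 54783998 to 54788459, Pabpc1l chromosome 2 from 164025450 to 164050538 and Patl2 chromosome 2 from 122120108 to 122186189. Ybx2 lies on chromosome 11 from 69935796 to 69941605 and Lsm14b on chromosome 2 from 180024987 to 180035465. Eif4enif1 lies on chromosome 11 from 3202392 to 3244588, Zfp36l2 on chromosome 17 from 84183931 to 84187947 and Cnot6l on chromosome 5 from 96070333 to 96164171. Of these, Zfp36l2 alone shared exonic bases with another annotated gene, an antisense transcript over 105 bases or 2.98% of its exons.

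The promoters of Zar1, Pabpc1l and Patl2 are shown because these genes moved together in the comparisons that follow. Each is the RefSeq window of GRCm38.p6 from 250 bases before to 50 bases after the annotated start, read 5′ to 3′ on the gene's strand, with every E-box (CANNTG) in capitals. They lie at chr5:72581035-72581334 (minus strand), chr2:164024974-164025273 (plus strand) and chr2:122186140-122186439 (minus strand).
Zar1: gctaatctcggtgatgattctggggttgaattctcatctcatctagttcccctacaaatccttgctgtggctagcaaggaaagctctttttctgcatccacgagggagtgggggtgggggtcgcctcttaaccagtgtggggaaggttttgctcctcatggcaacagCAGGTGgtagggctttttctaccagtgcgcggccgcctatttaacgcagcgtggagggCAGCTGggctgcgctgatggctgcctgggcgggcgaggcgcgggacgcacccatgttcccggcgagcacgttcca
Pabpc1l: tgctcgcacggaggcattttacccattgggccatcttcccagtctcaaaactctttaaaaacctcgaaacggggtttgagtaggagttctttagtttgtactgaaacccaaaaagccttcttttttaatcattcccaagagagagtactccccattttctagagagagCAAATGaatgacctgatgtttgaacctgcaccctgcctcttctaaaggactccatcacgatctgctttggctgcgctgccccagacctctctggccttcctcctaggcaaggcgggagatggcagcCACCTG
Patl2: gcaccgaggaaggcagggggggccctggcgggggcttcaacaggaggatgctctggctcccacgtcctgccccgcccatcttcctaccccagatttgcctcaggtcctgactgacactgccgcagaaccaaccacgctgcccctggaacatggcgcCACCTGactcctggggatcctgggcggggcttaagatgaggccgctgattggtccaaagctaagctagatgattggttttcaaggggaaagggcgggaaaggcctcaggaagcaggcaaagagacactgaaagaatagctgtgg
Counted from the start, the E-boxes began at positions -83 and -25 in Zar1, -82 and 45 in Pabpc1l, and -94 in Patl2. An E-box, the motif of helix-loop-helix factors such as FIGLA and SOHLH1, was found in 72.3% of 32851 promoters of this length, so it is common to most promoters. Homeobox sites of the NOBOX type were searched on both strands as TAATTG, as the palindrome TAATTA, and as TAGTTG. Neither these nor the letters TATAAA were found in the windows shown, while 17.9% of all promoters held at least 1 of the homeobox motifs and 13.6% held TATAAA. The window of Zar1l, the paralog without a row, held TAATTG at positions -145 and -120. CANNTG, like the palindrome, reads the same on both strands and each match was counted once. Of the 10 genes 8 had a promoter in the table used, all but Eif4e1b and Zfp36l2. E-boxes also stood in at least 1 window of Zar1l, Ybx2, Lsm14b, Eif4enif1 and Cnot6l.

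Levels of the 9 genes covered wide and different ranges. Zar1, an RNA-binding protein that gathers stored mRNA, and Eif4e1b, the oocyte form of the cap-binding protein eIF4E, were both highest in DIOLs.S of day 14, at 4235 and 2225 TPM. The Y-box protein gene Ybx2, whose product coats mRNA throughout the germ cell, was also highest there, at 2252 TPM, and lowest in matured DIOLs at 70.2 TPM. Lsm14b, a component of silenced mRNA particles, and Cnot6l, a catalytic deadenylase of the CCR4-NOT complex, were highest in matured DIOLs, at 3271 and 253.5 TPM. Pabpc1l, the oocyte poly(A)-binding protein, and Patl2, the oocyte member of the Pat1 family of repressors, were highest in incompetent GV oocytes, at 623 and 376 TPM. Eif4enif1, which binds eIF4E and represses translation, peaked at 573 TPM in DIOLs of day 25. Zfp36l2, which binds AU-rich elements and recruits deadenylases, was highest in the Nobox knockout at 174 TPM and lowest in competent GV oocytes at 6.94 TPM. When the 33 groups were put in order of their mean, the libraries of neighbouring groups overlapped in 11 of 32 pairs for Zar1 and for Eif4e1b, and in 25 of 32 for Cnot6l.

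**Figure D1:**
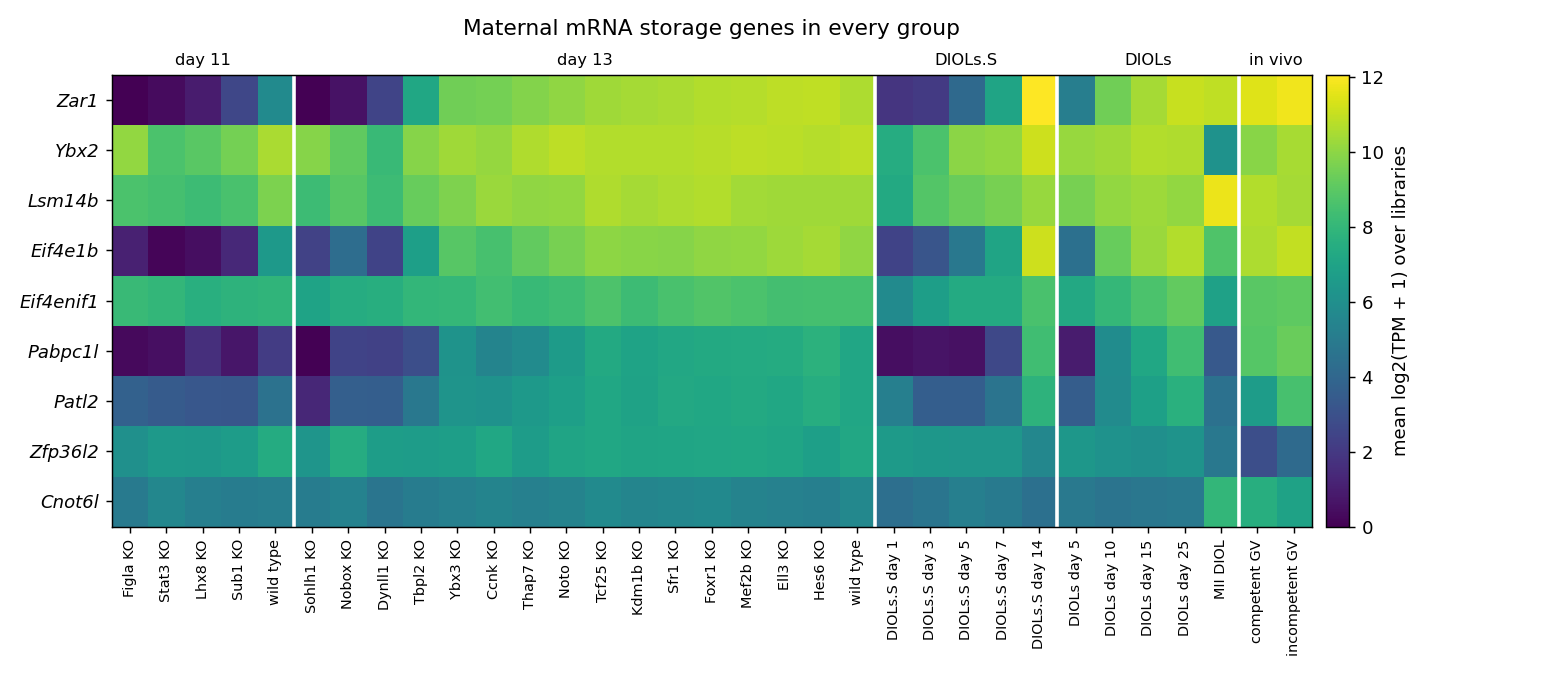
Mean log2(TPM + 1) over the libraries of each group (colour) for the 9 genes (rows) in 33 groups (columns; n = 2, or 3 for GV oocytes), with knockouts left of the wild type of their day. Zar1, Eif4e1b, Pabpc1l and Patl2 change from dark to bright with growth, while Zfp36l2 is mid-toned in the cultured groups and darkest in GV oocytes.

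Between day 11 and day 13 of the reconstituted ovary, wild-type oocytes gained 4 of the 9 transcripts. Zar1 had 1537 and 1453 TPM on day 13, against 59.1 and 46.9 TPM on day 11. Eif4e1b had 1051 and 1069 TPM on day 13, against 81.9 and 97.9 TPM on day 11. The libraries of the days did not overlap for any of the 9 members, nor for 62.6% of all genes tested. Pabpc1l read 131 and 146.5 TPM on day 13, against 3.29 and 3.51 TPM on day 11, and Patl2 read 133 and 141 TPM against 22.2 and 21.6 TPM. Differences were computed on log2(TPM + 1) with limma, which understates the change of low genes, and calls required a change of at least 1 on that scale together with an adjusted p below 0.05. The log2 change of day 13 over day 11 was 4.80 ± 0.21 for Zar1 (SE, adjusted p = 1.9e-15), 3.55 ± 0.78 for Eif4e1b (adjusted p = 0.0006), 4.99 ± 0.29 for Pabpc1l (adjusted p = 3.6e-13) and 2.59 ± 0.44 for Patl2 (adjusted p = 3.2e-05). Of all genes tested 5.5% rose, and the median change was 0.67 over the members and -0.24 over all genes.

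The other members, apart from Cnot6l (32.2 and 36.8 TPM), already stood above Zar1 and Eif4e1b on day 11. Ybx2 read 1906 and 1807 TPM on day 13 against 1488 and 1464 TPM on day 11, and Lsm14b read 1284 and 1295 TPM against 837 and 786 TPM. Their log2 changes of 0.33 and 0.67 stayed under the threshold, as did 0.60 for Eif4enif1, -0.19 for Zfp36l2 and 0.48 for Cnot6l. Of 69 other genes of mRNA storage and translation control, 2 rose and 10 fell. Over these 69 genes the median change was -0.215, beside -0.24 over all genes. The largest falls were in Zfp36l1, a paralog of Zfp36l2 (1.39 TPM on day 13 against 62.2 TPM on day 11, log2 change -4.73), the antiproliferative deadenylase partner Btg2 (20.1 against 379 TPM, -4.18), the uridylyltransferase gene Zcchc11 (4.75 against 35.0 TPM, -2.64) and the poly(A) polymerase Papolg (7.74 against 31.2 TPM, -1.94). Libraries of the 2 days differed in scale by -0.44 on the log2 axis. A library's scale was its median ratio to the geometric mean over libraries of the fit, among genes detected in all of them. The shift is the difference between group means of its log2 value. Relative to that shift Lsm14b (1.10) and Eif4enif1 (1.03) were called as well. With a pseudocount of 0.1 Eif4e1b was not called (adjusted p = 0.061). In bulk RNA, fewer cells of a type and less RNA per cell cannot be told apart. Summed granulosa and gonadal somatic markers (9 of 11 measured) were 32.4 to 33.8 TPM on day 13 and 934 to 973 TPM on day 11, and their part in these differences was not tested.

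In 4 knockouts of day 13 most of these genes fell. The Nobox gene encodes a homeobox factor of early follicles, Sohlh1 a helix-loop-helix factor of primordial follicles, Tbpl2 the oocyte relative of TATA-binding protein and Dynll1 a dynein light chain. All comparisons of day 13 share the same 2 wild-type libraries, so they are not independent of one another. In Nobox knockout oocytes Zar1 was at 0.39 and 0.65 TPM and Pabpc1l at 5.80 and 3.13 TPM, against the wild-type values given above. Eif4e1b kept a level of 16.2 and 21.6 TPM and Patl2 of 11.7 and 11.7 TPM in the same libraries. No member's libraries overlapped between Nobox knockout and wild type, and neither did those of 76.1% of all genes tested. The log2 changes were -9.95 ± 0.21 for Zar1 (adjusted p = 1.2e-22), -5.75 ± 0.78 for Eif4e1b (adjusted p = 6.6e-07), -4.72 ± 0.29 for Pabpc1l (adjusted p = 3.1e-13) and -3.44 ± 0.44 for Patl2 (adjusted p = 2.5e-07).

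Ybx2 fell less in the Nobox knockout, to 536 and 549 TPM against 1906 and 1807 TPM in wild type (log2 change -1.77). Lsm14b fell to 495 and 462 TPM (-1.43) and Eif4enif1 to 174 and 171 TPM, against 368 and 348 TPM in wild type (-1.05). The decay factor Zfp36l2 did not follow: it read 176 and 172 TPM in the Nobox knockout against 151 and 145 TPM in wild type (log2 change 0.23, adjusted p = 0.055). Cnot6l read 37.9 and 41.1 TPM against 46.7 and 50.2 TPM (-0.29). Thus 7 of 9 members fell, where 8.5% of all genes fell, with a member median of -1.77 and an all-gene median of 0.52. Relative to a scale shift of 0.58 between these libraries, 7 members were still called, and Zfp36l2 turned to -0.345 (adjusted p = 0.012). Among the 69 other genes 15 rose and 7 fell, led by Cpsf4l, an oocyte relative of a polyadenylation factor (0.62 TPM in the Nobox knockout against 452 TPM in wild type, log2 change -8.20), Btg2 (601 against 20.1 TPM, 4.84), Zfp36l1 (41.3 against 1.39 TPM, 4.16) and the RNA-binding Msi2 (34.6 against 2.81 TPM, 3.25). The median change was 0.37 over these 69 genes, beside 0.52 over all genes.

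**Figure D2:**
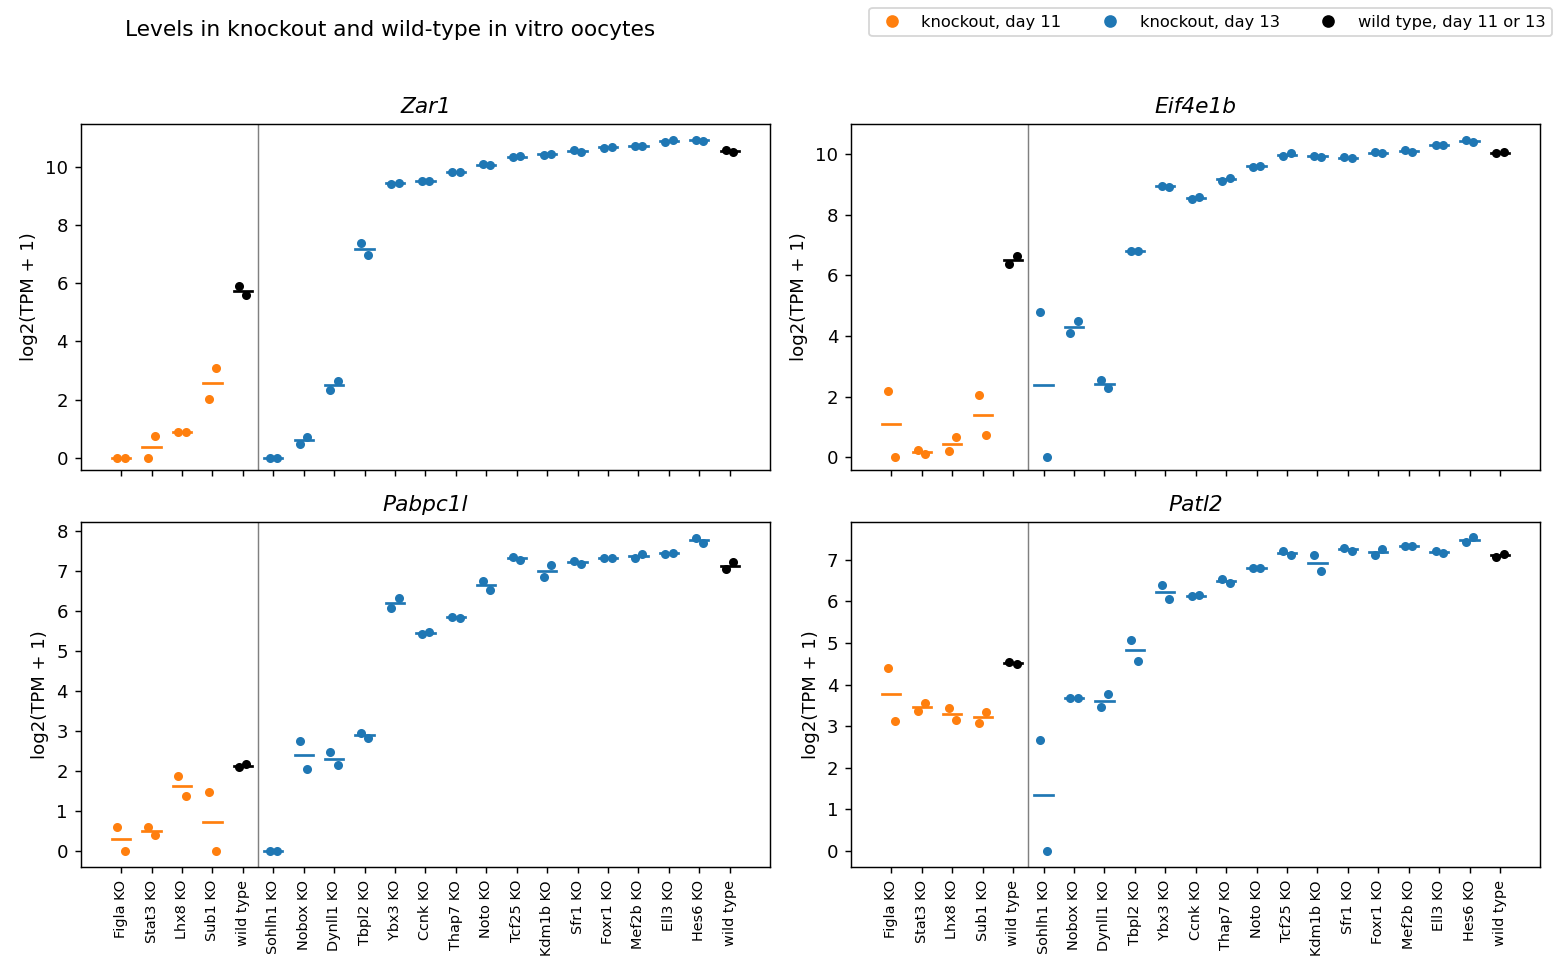
log2(TPM + 1) of Zar1, Eif4e1b, Pabpc1l and Patl2 in each library (points) of the knockouts and wild type of day 11 (left of the grey line) and day 13 (right), with the mean of each group as a bar and knockouts in order of Zar1. Sohlh1, Nobox, Dynll1 and Tbpl2 knockouts lie far below the wild type of day 13, the Sohlh1 pair being split for Eif4e1b (26.5 and 0 TPM) and Patl2.

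The Sohlh1 knockout libraries listed Zar1 and Pabpc1l at 0 in both, Eif4e1b at 26.5 and 0 TPM and Patl2 at 5.35 and 0 TPM. Lsm14b read 340 and 278 TPM there against 1284 and 1295 TPM in wild type (log2 change -2.06 ± 0.062, adjusted p = 2.1e-19), and Eif4enif1 read 135 and 114 TPM against 368 and 348 TPM (-1.52 ± 0.078, adjusted p = 1.1e-14). In all 6 members fell, beside 13.4% of all genes, and the median change was -2.06 over members and 0.076 over all genes. Ybx2 stood just under the threshold at -0.99, and was called without Sohlh1 knockout replicate 1 (-1.29) or wild-type replicate 2 (-1.03). Zfp36l2, at -0.92, was called without Sohlh1 knockout replicate 2 (-1.14). Both were called relative to a scale shift of 0.36, which gave 8 members. Summed macrophage markers, all 8 measured, were at 36.8 and 1953 TPM in the 2 Sohlh1 knockout libraries, and 68.9 to 86.0 TPM in wild type. Their part in these changes was not tested.

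Tbpl2 knockout oocytes kept more of Zar1 and Eif4e1b than of Pabpc1l. Zar1 read 165 and 124 TPM, Eif4e1b 111 and 112 TPM, and Pabpc1l 6.77 and 6.14 TPM in the Tbpl2 knockout. The log2 changes against wild type were -3.38 ± 0.21 (adjusted p = 1.2e-12), -3.24 ± 0.78 (adjusted p = 0.0012) and -4.23 ± 0.29 (adjusted p = 5.9e-12). Patl2 fell to 32.7 and 22.7 TPM (-2.29), Ybx2 to 943 and 902 TPM (-1.01) and Lsm14b to 597.5 and 607.5 TPM (-1.10). These 6 falls stood beside 6.35% of all genes, with medians of -1.10 over members and 0.36 over all genes. Relative to the scale shift of 0.44, Zfp36l2 (-1.01) and Cnot6l (-1.01) were called as well. Eif4e1b was not called with a pseudocount of 0.1 (adjusted p = 0.08), and Ybx2 missed the threshold without wild-type replicate 1 (-0.97) or Tbpl2 knockout replicate 2 (-0.98). Zfp36l1 (43.4 TPM in the Tbpl2 knockout against 1.39 TPM in wild type), Zcchc11 (76.8 against 4.75 TPM), Btg2 (280 against 20.1 TPM) and the mRNA-binding Igf2bp1 (9.08 against 0.070 TPM) had the largest changes among the 16 that rose and 5 that fell of the 69 other genes. These 69 genes had a median change of 0.33, beside 0.36 over all genes.

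The Dynll1 knockout had a summed level of the 9 transcripts of 926 ± 8.54 TPM against 6531 ± 109 TPM in wild type (SD, n = 2 each). Zar1 read 4.03 and 5.29 TPM in it and Eif4e1b 4.80 and 3.94 TPM, with log2 changes of -8.05 ± 0.21 (adjusted p = 6e-21) and -7.63 ± 0.78 (adjusted p = 4.1e-09). Ybx2 fell to 286 and 280 TPM (-2.71 ± 0.094, adjusted p = 1.9e-18), and Lsm14b fell to 297 and 316 TPM (-2.07). Pabpc1l (4.53 and 3.46 TPM, -4.81) and Patl2 (10.1 and 12.6 TPM) completed the 6 that fell, beside 10.4% of all genes. Member and all-gene medians were -2.71 and 0.69. Relative to the scale shift of 0.65 all 9 members were called, with Eif4enif1 at -1.59, Zfp36l2 at -1.17 and Cnot6l at -1.59. Without that shift, Eif4enif1 was called without Dynll1 knockout replicate 1 (-1.02), and Cnot6l without that library (-1.0) or wild-type replicate 1 (-1.02). Of the 69 other genes 26 rose and 9 fell, among them Igf2bp1 (46.5 TPM against 0.070 TPM), Zcchc11 (108 against 4.75 TPM), Zfp36l1 (42.8 against 1.39 TPM) and Cpsf4l (27.4 against 452 TPM). The median change of these 69 genes was 0.53, beside 0.69 over all genes.

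These 4 knockouts also differed from wild type in cell type markers. Summed oocyte markers were 1924 to 1928 TPM in the Nobox knockout, 1563 to 2167 TPM in the Sohlh1 knockout, 11000 to 11140 TPM in the Tbpl2 knockout and 2202 to 2226 TPM in the Dynll1 knockout, against 53150 to 54380 TPM in wild type. Summed granulosa and gonadal somatic markers were 674 to 693.5, 160.5 to 249.4, 820 to 891 and 334 to 373 TPM in the same knockouts, against 32.4 to 33.8 TPM in wild type. Summed macrophage markers were 146.9 to 152.8 TPM in the Dynll1 knockout, against 68.9 to 86.0 TPM in wild type. The part of these markers in the changes was not tested. Of the 9 granulosa and gonadal somatic markers measured, 8 stood at a mean of 1 TPM or more in the Nobox, Tbpl2 and Dynll1 knockouts and 7 in the Sohlh1 knockout, against 6 in wild type.

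Nobox and Tbpl2 knockout oocytes differed from each other in 3 members. Zar1 was lower in the Nobox knockout (0.39 and 0.65 TPM) than in the Tbpl2 knockout (165 and 124 TPM), by a log2 change of -6.57 ± 0.21 (adjusted p = 2.3e-18). Eif4e1b (-2.51 ± 0.78, adjusted p = 0.014) and Patl2 (-1.15 ± 0.44, adjusted p = 0.047) were lower too, and Pabpc1l was not called (-0.49, adjusted p = 0.21). The calls stood beside 6.63% of all genes, with medians of -0.54 over members and 0.016 over all genes. Zfp36l2 read 176 and 172 TPM in the Nobox knockout against 102 and 95.3 TPM in the Tbpl2 knockout (0.81, under the threshold). Only the Zar1 call held in all alternatives run: Patl2 was lost without any 1 of the 4 libraries (adjusted p of 0.062 to 0.26), and Eif4e1b without Nobox knockout replicate 1 (adjusted p = 0.084) or either Tbpl2 knockout library (adjusted p = 0.06 and 0.062). Of the 69 other genes 5 were higher and 4 lower, with Cpsf4l at 0.62 TPM in the Nobox knockout against 128 TPM in the Tbpl2 knockout. These 69 genes had a median of -0.037.

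Ybx3 encodes a Y-box protein related to Ybx2, and its knockout had milder differences. Zar1 fell to 677.5 and 697 TPM in the Ybx3 knockout against 1537 and 1453 TPM in wild type (log2 change -1.12 ± 0.21, adjusted p = 0.00016), and was the only member called, beside 2.21% of all genes. Ybx2 read 1265 and 1278 TPM against 1906 and 1807 TPM (-0.55). All 9 members were lower with no overlap, where 62.3% of all genes tested had no overlap in one direction or the other, and the median was -0.63 over members and 0.20 over all genes. The Zar1 call was lost with a pseudocount of 0.1 (adjusted p = 0.085). Relative to a scale shift of 0.34 Pabpc1l (-1.28) and Patl2 (-1.22) were called too, Pabpc1l also without wild-type replicate 1 (-1.02) or Ybx3 knockout replicate 2 (-1.06), and Eif4e1b (-1.11) without the Sohlh1 knockout libraries in the fit (adjusted p = 0.018). Granulosa and gonadal somatic markers summed to 1244 to 1315 TPM in the Ybx3 knockout and 32.4 to 33.8 TPM in wild type. Oocyte markers summed to 30120 to 30750 TPM in the Ybx3 knockout and 53150 to 54380 TPM in wild type. Macrophage markers summed to 176.4 to 187.0 TPM and 68.9 to 86.0 TPM in the same order. The part of these markers was not tested. Of the other genes 10 rose, with Zfp36l1 (60.5 against 1.39 TPM), Btg2 (365 against 20.1 TPM), Zcchc11 (60.6 against 4.75 TPM) and Papolg (30.0 against 7.74 TPM) first. The median change of the 69 other genes was 0.081.

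In the libraries labelled Ccnk knockout, Zar1 fell to 734 and 727 TPM (log2 change -1.03 ± 0.21, adjusted p = 0.0011) and Pabpc1l to 42.2 and 43.0 TPM, against 131 and 146.5 TPM in wild type (-1.68 ± 0.29, adjusted p = 0.00018). These 2 calls stood beside 0.91% of all genes, with medians of -0.70 over members and 0.22 over all genes. With a pseudocount of 0.1 neither was called (adjusted p of 0.16 for Zar1 and 0.12 for Pabpc1l), and Zar1 missed the threshold without wild-type replicate 1 (-0.99). Relative to a scale shift of 0.30 Patl2 was called (-1.27, adjusted p = 0.049), and Eif4e1b (-1.49) without the Sohlh1 knockout libraries (adjusted p = 0.0036). In the Thap7 knockout Pabpc1l alone fell, to 56.9 and 55.2 TPM (-1.29 ± 0.29, adjusted p = 0.0064), beside 0.341% of all genes and with medians of -0.55 over members and 0.088 over all genes. That call was lost without either Thap7 knockout library or wild-type replicate 2 (adjusted p of 0.057 to 0.07) and with a pseudocount of 0.1 (adjusted p = 0.39). Granulosa and gonadal somatic markers summed to 153.5 to 158.2 TPM in the libraries labelled Ccnk knockout and 227.4 to 237.6 TPM in the Thap7 knockout, against 32.4 to 33.8 TPM in wild type. Oocyte markers summed to 36940 to 37830 TPM in the libraries labelled Ccnk knockout and 40530 to 40870 TPM in the Thap7 knockout, against 53150 to 54380 TPM in wild type. The part of these markers was not tested.

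No member was called in the remaining 8 knockouts of day 13. By limma, 3.19% of all genes were called in either direction in the Kdm1b knockout, 2.23% in the Noto knockout, 1.88% in the Foxr1 knockout and 1.08% in the Mef2b knockout. The shares were 1.24% in the Sfr1 knockout, 0.593% in the Hes6 knockout, 0.114% in the Ell3 knockout and 0.504% in the Tcf25 knockout. Members with an unadjusted p under 0.05 numbered 3 in the Noto, Hes6 and Tcf25 knockouts, 2 in the Foxr1, Mef2b and Sfr1 knockouts, and 1 in the Kdm1b and Ell3 knockouts. Of all 12306 genes tested, the share with an unadjusted p under 0.05 was 14.3% in Noto, 12.5% in Hes6, 15.5% in Tcf25, 15.3% in Foxr1, 10.5% in Mef2b, 15.3% in Sfr1, 14.6% in Kdm1b and 7.87% in Ell3. Zar1 spanned 1067 TPM in the Noto knockout to 1940 TPM in the Hes6 knockout, on both sides of wild type. The member median of the log2 change lay between -0.24 (Noto) and 0.097 (Foxr1), where the all-gene median was 0.060 and 0.13. It was -0.17 in the Kdm1b knockout, 0.051 in Mef2b, -0.0052 in Sfr1, -0.010 in Hes6, 0.0044 in Ell3 and 0.054 in Tcf25, beside all-gene medians of 0.056, 0.035, 0.13, -0.0022, -0.012 and 0.098 in the same order.

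On day 11 the knockouts held little Zar1 and Eif4e1b, while wild type held 59.1 and 46.9 TPM of Zar1 and 81.9 and 97.9 TPM of Eif4e1b. The comparisons of day 11 share these wild-type libraries. Lhx8, which encodes a homeobox factor of primordial oocytes, left 0.86 and 0.86 TPM of Zar1 and 0.17 and 0.59 TPM of Eif4e1b when deleted. The Figla knockout, of a helix-loop-helix factor that turns on zona genes, listed Zar1 at 0 in both libraries and Eif4e1b at 3.58 and 0 TPM. The Stat3 knockout, of a signal-dependent transcription factor, had 0 and 0.68 TPM of Zar1 and 0.18 and 0.08 TPM of Eif4e1b. Libraries labelled Sub1 knockout, of a transcriptional coactivator, had 3.11 and 7.45 TPM of Zar1 and 3.15 and 0.67 TPM of Eif4e1b. Every knockout library of day 11 thus lay below both wild-type libraries for these 2 genes. Of all genes, 61.1% in Lhx8, 63.7% in Figla, 65.9% in Stat3 and 56.5% in those labelled Sub1 lay wholly above or below wild type. The log2 changes for Zar1 were -4.85 ± 0.21 in Lhx8 (adjusted p = 5.2e-16), -5.37 ± 0.21 in Stat3 (adjusted p = 4.8e-17) and -3.19 ± 0.21 in the libraries labelled Sub1 (adjusted p = 4.3e-12). For Eif4e1b they were -6.05 ± 0.78, -6.33 ± 0.78 and -5.10 ± 0.78 (adjusted p of 5.3e-07, 1.8e-07 and 7.5e-06).

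The abundant particle genes fell less. Lsm14b read 290 and 312 TPM in the Lhx8 knockout, 409 and 393 TPM in Figla, 368 and 352 TPM in Stat3 and 396 and 371 TPM in the libraries labelled Sub1, against 837 and 786 TPM in wild type, with log2 changes of -1.43, -1.01, -1.17 and -1.08. Ybx2 fell to 487 and 508 TPM in Lhx8 (-1.57), 388 and 401 TPM in Stat3 (-1.90) and 732 and 728 TPM in the libraries labelled Sub1 (-1.01), against 1488 and 1464 TPM. In the Figla knockout Ybx2 kept 1074 and 1118 TPM (-0.43, under the threshold). Eif4enif1 was called in none of these knockouts, with log2 changes of -0.29, 0.29, 0.086 and -0.11 in the same order. Zfp36l2 fell in the Figla knockout, to 69.5 and 60.4 TPM against 169 and 169 TPM in wild type (-1.37), and lay at -0.999, -0.91 and -0.76 in Lhx8, Stat3 and the libraries labelled Sub1, without a call. Cnot6l lay between -0.19 in Figla and 0.45 in Stat3.

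Pabpc1l, low in wild type of day 11, was called lower in Figla (0.53 and 0 TPM, -1.83), Stat3 (0.52 and 0.33 TPM, -1.63) and the libraries labelled Sub1 (1.78 and 0 TPM, -1.40). Patl2 was called in Lhx8 (9.79 and 7.89 TPM, against 22.2 and 21.6 TPM in wild type, -1.23) and in the libraries labelled Sub1 (7.49 and 9.16 TPM, -1.30). In all, 5 members fell in Lhx8, beside 9.47% of all genes, 5 in Figla, beside 9.52%, 5 in Stat3, beside 11.5%, and 6 in the libraries labelled Sub1, beside 9.26%. Member medians were -1.23, -1.01, -1.17 and -1.08, and all-gene medians 0.072, 0.20, 0.088 and 0.018. Of the 69 other genes 11 rose and 7 fell in Lhx8, 17 and 6 in Figla, 15 and 6 in Stat3, and 11 and 6 in the libraries labelled Sub1. Medians over these 69 genes were 0.11, 0.31, 0.32 and 0.18 in the same order. Cpsf4l, at 168 TPM in wild type, had the largest fall in each, to 2.02, 15.8, 11.8 and 12.8 TPM. The translation repressor Eif4ebp3 rose to 117, 154, 112 and 86.7 TPM against 21.1 TPM in wild type, and the stress granule gene G3bp2 fell to 126, 138 and 134 TPM against 710 TPM in Lhx8, Figla and Stat3.

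Several day 11 calls near the threshold rested on single libraries. Patl2 was lost in Lhx8 without any 1 of the 4 libraries (adjusted p of 0.061 to 0.14) and with a pseudocount of 0.1 (adjusted p = 0.28), and in the libraries labelled Sub1 without Sub1 replicate 1 or either wild-type library (adjusted p of 0.066 to 0.1) and with a pseudocount of 0.1 (adjusted p = 0.24). It was called in Figla without Figla replicate 1 (-1.39, adjusted p = 0.031), and in Stat3, where it stood at -1.07 with an adjusted p of 0.05, in 4 alternatives (adjusted p of 0.00028 to 0.043). Lsm14b in Figla missed the threshold without wild-type replicate 1 (-0.97) or Figla replicate 2 (-0.99), and Pabpc1l in the libraries labelled Sub1 without Sub1 replicate 2 (-0.66). Zfp36l2 in Lhx8 was called without Lhx8 replicate 1 (-1.01) or wild-type replicate 2 (-1.001) and with a pseudocount of 0.1 (-1.01). Relative to scale shifts of 0.051, 0.26, 0.16 and 0.11 in Lhx8, Figla, Stat3 and Sub1, the counts were 6, 5, 7 and 6. Oocyte markers summed to between 1354 and 2309 TPM in these knockouts and 7840 to 8026 TPM in wild type, and macrophage markers to 252 to 267 TPM in Lhx8, 284 to 302 TPM in Figla, 20.35 to 20.95 TPM in Stat3 and 1481 to 1571 TPM in the libraries labelled Sub1, against 23.9 to 43.7 TPM in wild type. Granulosa and gonadal somatic markers summed to 1451 to 1485 TPM in Lhx8, 873.7 to 931.6 TPM in Figla, 846.4 to 871.5 TPM in Stat3 and 749.1 to 775.9 TPM in the libraries labelled Sub1, against 934 to 973 TPM in wild type. The part of these markers was not tested.

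During direct induction Ybx2, Lsm14b and Eif4enif1 rose between days 1 and 3, and Pabpc1l was first called between days 5 and 7. DIOLs.S of day 1 had 170 and 176 TPM of Ybx2, 159 and 162 TPM of Lsm14b and 49.2 and 56.6 TPM of Eif4enif1. On day 3 these read 396 and 409, 460 and 448, and 112 and 106 TPM, and all 3 rose (log2 changes of 1.21, 1.49 and 1.03 over day 1), beside 11.9% of all genes. Patl2 fell over the same days, to 10.5 and 12.2 TPM on day 3 against 36.7 and 35.7 TPM on day 1 (-1.60 ± 0.14, adjusted p = 9.7e-09), beside 9.0% of all genes that fell. The member median was 0.28 and the all-gene median 0.14. Relative to a scale shift of 0.22, Ybx2 (0.99) and Eif4enif1 (0.81) were not called, and Eif4enif1 was not called without DIOLs.S day 1 replicate 1 (0.93) or DIOLs.S day 3 replicate 1 (0.99). Summed pluripotency markers (3 of 6 measured) were 223.8 to 225.2 TPM on day 1 and 56.4 to 67.1 TPM on day 3, and summed oocyte markers 357.9 to 407.8 TPM on day 1 and 4146 to 4356 TPM on day 3. Their part in these changes was not tested.

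Zar1 and Eif4e1b rose at each later step. Zar1 read 1.16 and 4.96 TPM on day 1, 2.68 and 3.52 TPM on day 3, 16.3 and 16.2 TPM on day 5, 95.3 and 176 TPM on day 7, and 4298 and 4171 TPM on day 14. Eif4e1b read 4.99 and 3.72, 7.06 and 9.08, 28.7 and 25.7, 95.8 and 174, and 2262 and 2188 TPM on the same days. Pabpc1l stayed at or under 1 TPM through day 5, with 3.65 and 7.22 TPM on day 7 and 316 and 337 TPM on day 14. Between days 3 and 5 Zar1 (2.08 ± 0.31, adjusted p = 6.1e-05), Ybx2 (1.31 ± 0.10, adjusted p = 3.2e-08) and Eif4e1b (1.64 ± 0.18, adjusted p = 1.8e-06) rose, beside 3.81% of all genes. Between days 5 and 7 Zar1 (2.92), Eif4e1b (2.21), Pabpc1l (2.09) and Patl2 (1.03) rose, beside 2.96%. Between days 7 and 14 these 4 (5.02, 4.09, 5.73 and 3.14), Ybx2 (1.06) and Eif4enif1 (1.24) rose, beside 7.78%. Member medians for these steps were 0.53, 0.28 and 1.24, and all-gene medians 0.0035, -0.051 and -0.51.

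The 2 libraries of day 7 stood apart from each other. Replicate 2 held more of Zar1, Eif4e1b, Pabpc1l and Patl2 than replicate 1, and granulosa and gonadal somatic markers summed to 462 and 1878 TPM between the 2 libraries, a difference whose part was not tested. Patl2 between days 5 and 7 missed the threshold without day 7 replicate 2 (0.87), and Ybx2 between days 7 and 14 without day 7 replicate 1 (0.87). Relative to a scale shift of -0.50 between days 7 and 14, Lsm14b was called too (1.08). With all libraries in 1 fit Eif4e1b between days 3 and 5 was not called (adjusted p = 0.068). Zfp36l2 and Cnot6l were called at no step of DIOLs.S: Zfp36l2 read 97.2 and 87.9 TPM on day 1 and 45.1 and 49.3 TPM on day 14, and Cnot6l between 19.3 and 36.4 TPM throughout. Among the 69 other genes 4 rose and 27 fell between days 7 and 14, Zfp36l1 (0.355 TPM on day 14 against 48.4 TPM on day 7), Zcchc11 (1.27 against 28.8 TPM), Msi1 (0.095 against 11.8 TPM) and the germ cell translation regulator Dazl (11.4 against 104 TPM) most of all. For this step the median change was -0.65 over these 69 genes and -0.51 over all genes.

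**Figure D3:**
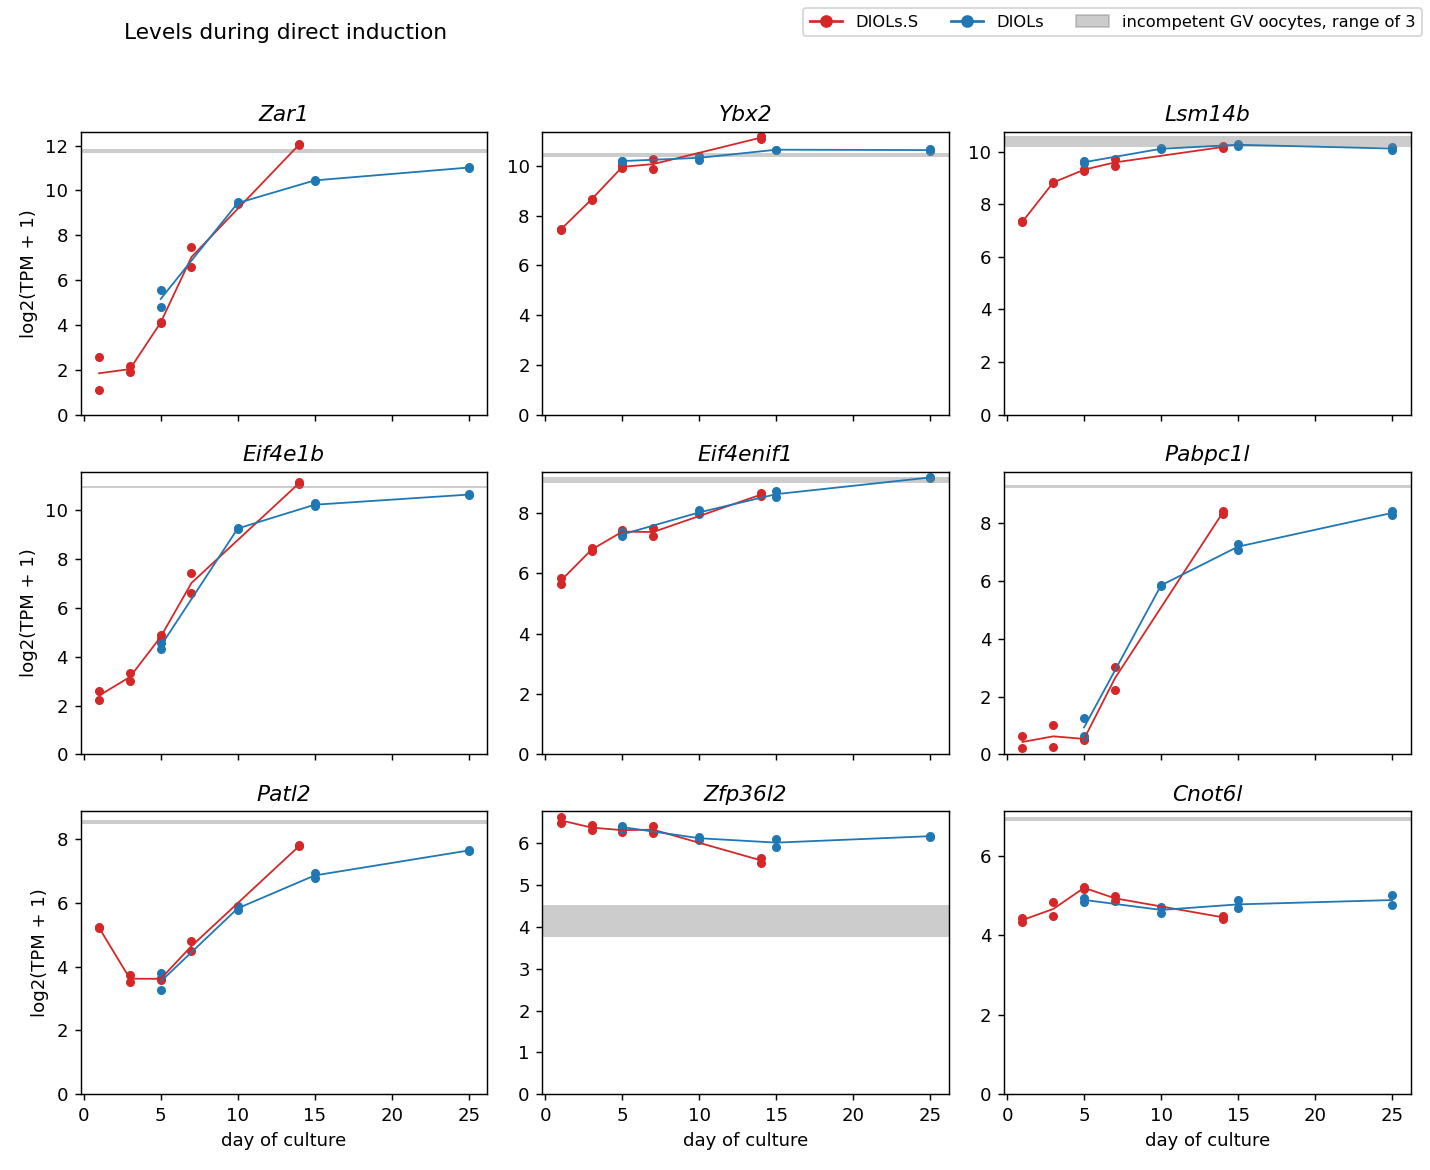
log2(TPM + 1) of each gene by day of culture in DIOLs.S (red) and DIOLs (blue), with 1 point per library, lines through group means and the range of 3 incompetent GV libraries in grey. Zar1, Eif4e1b, Pabpc1l and Patl2 climb steeply. Ybx2, Lsm14b and Eif4enif1 start above them on day 1 of DIOLs.S and also rise. Zfp36l2 stays above the GV range and Cnot6l below it.

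In DIOLs without the S label the same 4 genes rose between days 5 and 10. Zar1 read 45.4 and 26.5 TPM on day 5, 708 and 675 TPM on day 10, 1431 and 1360 TPM on day 15 and 2121 and 2031 TPM on day 25. Pabpc1l read 1.37 and 0.54, 55.7 and 57.3, 155.5 and 134, and 343 and 308 TPM on the same days. Between days 5 and 10 Zar1 (4.28 ± 0.31, adjusted p = 1.5e-09), Eif4e1b (4.82 ± 0.18, adjusted p = 1.8e-13), Pabpc1l (4.91 ± 0.24, adjusted p = 7.4e-12) and Patl2 (2.29 ± 0.14, adjusted p = 1e-10) rose, beside 3.92% of all genes. Between days 10 and 15 Zar1 (1.01), Pabpc1l (1.34) and Patl2 (1.03) rose, beside 1.12%, and between days 15 and 25 Pabpc1l alone (1.16 ± 0.24, adjusted p = 0.0013), beside 4.38%. Member medians were 0.73, 0.60 and 0.42, and all-gene medians -0.34, -0.073 and -0.0043. Eif4enif1 was called between days 5 and 10 relative to a scale shift of -0.30 (1.03).

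The calls between days 10 and 15 were close to the threshold. Zar1 was lost without any 1 of the 4 libraries (adjusted p of 0.1 to 0.14), and Patl2 missed the threshold without DIOLs day 10 replicate 2 (0.97) or DIOLs day 15 replicate 1 (0.94), and was not called with all libraries in 1 fit (adjusted p = 0.065). Eif4e1b, at 0.98, was called without DIOLs day 15 replicate 2 (1.04). With a pseudocount of 0.1 Pabpc1l was not called between days 10 and 15 (adjusted p = 0.06) or 15 and 25 (adjusted p = 0.078). On day 5, the day both series were sampled, Zar1 was lower in DIOLs.S (16.3 and 16.2 TPM) than in DIOLs (45.4 and 26.5 TPM), with a log2 change of -1.05 ± 0.31 (adjusted p = 0.012), beside 7.39% of all genes that were lower. Medians were -0.073 over members and -0.069 over all genes. That call was lost without DIOLs day 5 replicate 1 (-0.67, adjusted p = 0.18) or DIOLs.S day 5 replicate 2 (adjusted p = 0.055), and relative to a scale shift of -0.12 (-0.93). On this day summed granulosa and gonadal somatic markers were 371.4 to 382.0 TPM in DIOLs.S and 13.96 to 18.6 TPM in DIOLs. Their part in the difference was not tested.

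Against incompetent GV oocytes grown in the animal, DIOLs of day 25 had 1 of 9 members higher and 1 lower. Both counts were near the shares over all genes. Zfp36l2 read 70.4 and 71.4 TPM in DIOLs of day 25 against 21.8, 17.6 and 12.6 TPM in incompetent GV oocytes (log2 change 2.00 ± 0.22, adjusted p = 2e-07), beside 12.8% of all genes that were higher. Cnot6l read 31.2 and 26.3 TPM against 126, 117 and 118 TPM (-2.03 ± 0.11, adjusted p = 1.2e-11), beside 13.5% of all genes that were lower. The groups did not overlap for 8 of the 9 members, Zfp36l2 and Cnot6l among them, nor for 71.5% of all genes tested. Eif4e1b and Ybx2 lay closer: Eif4e1b read 1610 and 1593 TPM against 1950, 1971 and 2054 TPM (-0.31), and Ybx2 1630 and 1552 TPM against 1481, 1456 and 1322 TPM (0.17). Zar1 read 2121 and 2031 TPM against 3625, 3643 and 3295 TPM. Relative to a scale shift of 0.020 its log2 change was -0.78 (limma, adjusted p = 0.027), under the threshold. Pabpc1l at -0.94 and Patl2 at -0.92 stayed under the threshold, Pabpc1l passing it without DIOLs day 25 replicate 1 (-1.01). The member median was -0.31 and the all-gene median 0.0. Of the 69 other genes 7 were higher and 10 lower, with Dazl (20.1 against 195 TPM), the antiproliferative Tob2 (34.5 against 285 TPM), the helicase gene Eif4a1 (402 against 51.7 TPM) and the decapping cofactor Dcp1a (34.5 against 179 TPM) first.

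Wild-type in vitro oocytes of day 13 differed from the incompetent GV oocytes in 5 members. Zfp36l2 was higher, at 151 and 145 TPM against 21.8, 17.6 and 12.6 TPM (3.05 ± 0.17, adjusted p = 3.3e-19), beside 18.4% of all genes. Zar1 (1537 and 1453 TPM against 3625, 3643 and 3295 TPM, -1.23), Pabpc1l (131 and 146.5 against 640, 629 and 598 TPM, -2.16), Patl2 (133 and 141 against 387, 383.5 and 357 TPM, -1.45) and Cnot6l (46.7 and 50.2 TPM, -1.30) were lower, beside 15.2% of all genes. The member median was -0.91, beside an all-gene median of 0 after rounding, and relative to a scale shift of 0.23 the same number of members was called. Patl2 was not called with a pseudocount of 0.1 (adjusted p = 0.057). Of the other genes 12 were higher and 12 lower.

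Competent GV oocytes, which can resume meiosis, differed from incompetent ones in Patl2 and Zfp36l2. Patl2 fell to 106, 99.0 and 100.2 TPM in competent oocytes, against 387, 383.5 and 357 TPM in incompetent ones (log2 change -1.87 ± 0.11, adjusted p = 6.5e-11). Zfp36l2 fell to 3.66, 8.69 and 8.47 TPM against 21.8, 17.6 and 12.6 TPM (-1.25 ± 0.20, adjusted p = 3.6e-05). Neither gene overlapped between the groups, where 56.5% of all genes tested did not overlap either, and 7.42% of all genes fell. Cnot6l read 168, 208 and 181 TPM against 126, 117 and 118 TPM (0.61, adjusted p = 5.3e-05) and Ybx2 852, 981 and 1016 TPM against 1481, 1456 and 1322 TPM (-0.58, adjusted p = 1e-05), both without overlap and under the fold threshold. Medians were -0.41 over members and -0.0031 over all genes. Zfp36l2 missed the threshold without competent GV replicate 1 (-0.91). Of the 69 other genes 4 rose and 3 fell, among them the somatic poly(A)-binding gene Pabpc1 (37.0 against 140 TPM, -1.85), Papolg (90.3 against 35.5 TPM, 1.32), the m6A reader Ythdf1 (47.4 against 111 TPM, -1.21) and Larp1 (10.1 against 24.4 TPM, -1.19). The median change of these 69 genes was 0.10.

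Polyadenylated RNA of most members differed between matured DIOLs and both kinds of immature cell. Ybx2 read 66.0 and 74.2 TPM in matured DIOLs, against 1630 and 1552 TPM in DIOLs of day 25 and 852, 981 and 1016 TPM in competent GV oocytes. Pabpc1l read 10.8 and 7.91 TPM in matured DIOLs, against 343 and 308 TPM and 492, 447 and 465 TPM in the same cells. The log2 changes against DIOLs of day 25 and against competent GV oocytes were -4.49 ± 0.10 and -3.74 ± 0.093 for Ybx2 (adjusted p of 8.4e-19 and 3.3e-18), and -4.99 ± 0.24 and -5.52 ± 0.22 for Pabpc1l (adjusted p of 9.2e-14 and 5e-15). Eif4enif1 (114 and 121 TPM; -2.28 and -2.08), Patl2 (19.6 and 24.3 TPM; -3.13 and -2.17) and Eif4e1b (456 and 392 TPM; -1.92 and -1.83) also fell against both. The libraries of matured DIOLs are the same in both comparisons.

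Lsm14b and Zar1 did not follow that course. Lsm14b rose to 3340 and 3201 TPM in matured DIOLs, against 1154 and 1067 TPM in DIOLs of day 25 (1.56 ± 0.099, adjusted p = 7.5e-12) and 1562, 1710 and 1606 TPM in competent GV oocytes (1.01 ± 0.090, adjusted p = 2.3e-09). Zar1 read 1986 and 1872 TPM, with log2 changes of -0.11 and -0.53 and no call. Cnot6l rose to 265 and 242 TPM against 31.2 and 26.3 TPM in DIOLs of day 25 (3.10 ± 0.12, adjusted p = 4.1e-15), and had a log2 change of 0.45 against competent GV oocytes. Zfp36l2 read 27.3 and 27.8 TPM in matured DIOLs, below DIOLs of day 25 (-1.33, adjusted p = 5.3e-05) and above competent GV oocytes (1.92, adjusted p = 1.4e-07). No member overlapped between matured DIOLs and DIOLs of day 25 or competent GV oocytes, where 80.9% and 78.6% of all genes tested did not overlap either.

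**Figure D4:**
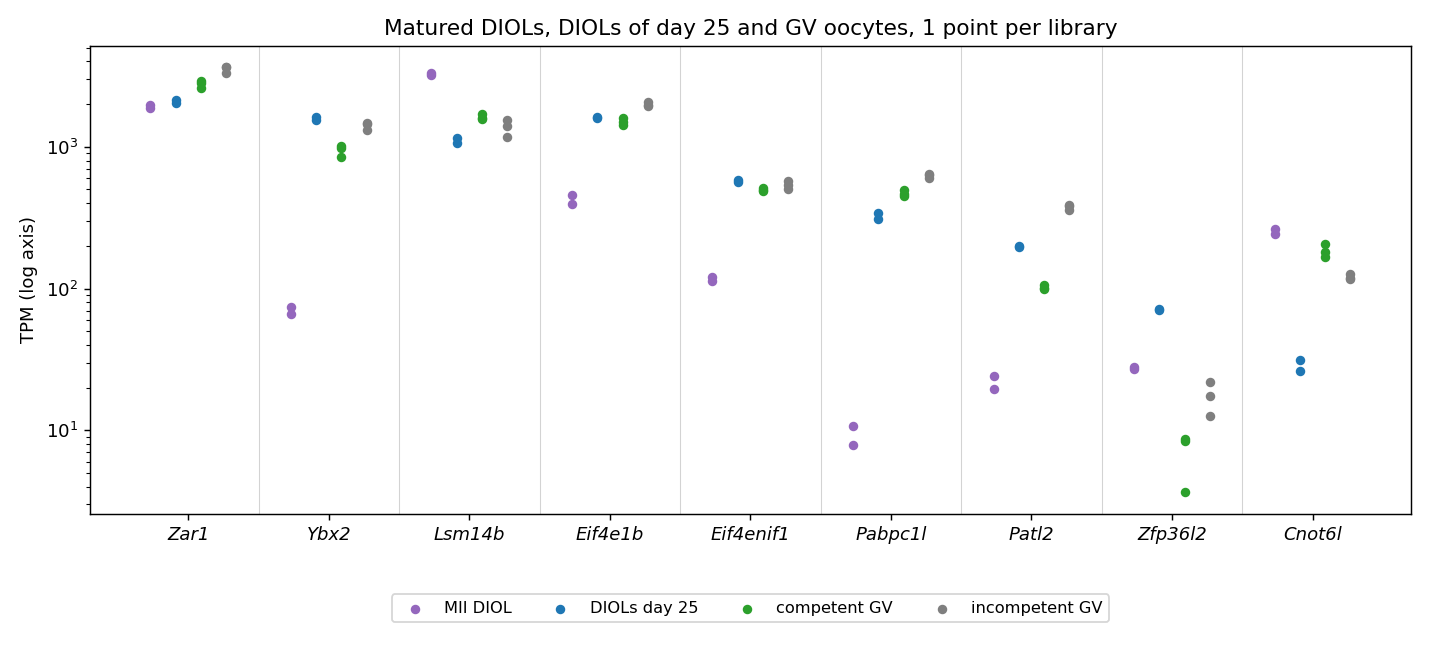
TPM on a log axis of the 9 genes in matured DIOLs (MII), DIOLs of day 25, competent GV and incompetent GV oocytes, 1 point per library. Matured DIOLs stand far below the others for Ybx2, Pabpc1l and Patl2, and above them for Lsm14b and Cnot6l.

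Against DIOLs of day 25, 2 members rose, beside 19.8% of all genes, and 6 fell, beside 37.8%. Against competent GV oocytes 2 rose, beside 18.3%, and 5 fell, beside 31.9%. Member medians were -1.92 and -1.83, and all-gene medians -0.39 and -0.13. Scale shifts were large here, -0.98 and -0.89, and relative to them Eif4e1b was not called in either comparison (-0.94 in both), Zfp36l2 was not called against DIOLs of day 25 (-0.38) and Cnot6l was called against competent GV oocytes (1.33). Zar1, relative to the shift, lay at 0.87 and 0.36. Lsm14b against competent GV oocytes missed the threshold without matured DIOL replicate 1 (0.98) or competent GV replicate 1 (0.98), and with the replicate number as a block (0.95). Since the libraries were poly(A)-selected, all of these levels are of polyadenylated RNA. Granulosa and gonadal somatic markers summed to between 432 and 730 TPM in matured DIOLs and 25.6 to 26.3 TPM in DIOLs of day 25, and their part was not tested.

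Among the 69 other genes of mRNA storage and translation control, 28 rose and 24 fell in matured DIOLs in each of these comparisons. Cpsf4l read 4.21 TPM in matured DIOLs against 1078 TPM in DIOLs of day 25 (log2 change -7.71), Dcp1a 2389 TPM against 34.5 TPM (6.08), the cytoplasmic polyadenylation factor Cpeb4 145 TPM against 2.17 TPM (5.52) and Btg1, a deadenylase partner, 128 TPM against 7.79 TPM (3.87). Against competent GV oocytes Cpsf4l (-8.27), the poly(A)-binding protein inhibitor Paip2 (25.2 against 799 TPM, -4.93), the fragile X relative Fxr2 (19.4 against 446 TPM, -4.48) and Cpeb4 (4.47) had the largest changes.

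Members were also set against 8 broadly expressed paralogs that were measured. The log2 ratio of Eif4e1b to Eif4e, on TPM + 1, was 3.76 in wild type of day 13 and -0.080 in wild type of day 11, and Eif4e itself read 72.3 and 82.7 TPM against 82.5 and 109 TPM. It was -1.71 in the Nobox knockout and -6.19 in the Stat3 knockout. In DIOLs.S it was -4.05 on day 1, 0.49 on day 7 and 4.56 on day 14. Pabpc1l lay nearer to Pabpc1 in wild type of day 13 (-0.85) than of day 11 (-6.58), and above it in competent (3.64) and incompetent (2.20) GV oocytes. In matured DIOLs Pabpc1l was below Pabpc1 again (-2.27).

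The ratio of Patl2 to Patl1 was 1.25 in wild type of day 13 and -1.84 in wild type of day 11, and that of Ybx2 to Ybx1 was 4.26 and 2.98. Matured DIOLs had ratios of -1.94 for Patl2 to Patl1 and -1.07 for Ybx2 to Ybx1, against 2.71 and 3.22 in DIOLs of day 25. Ybx1, a Y-box protein of most cells, read 132 and 166 TPM in matured DIOLs and 163 and 178 TPM in DIOLs of day 25. Zfp36l2 to Zfp36l1 stood at 5.98 in wild type of day 13 and 1.44 on day 11. Cnot6l exceeded its paralog Cnot6 in competent GV oocytes by 3.65 on the same scale. Ratios are descriptions and were not tested.

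**Figure D5:**
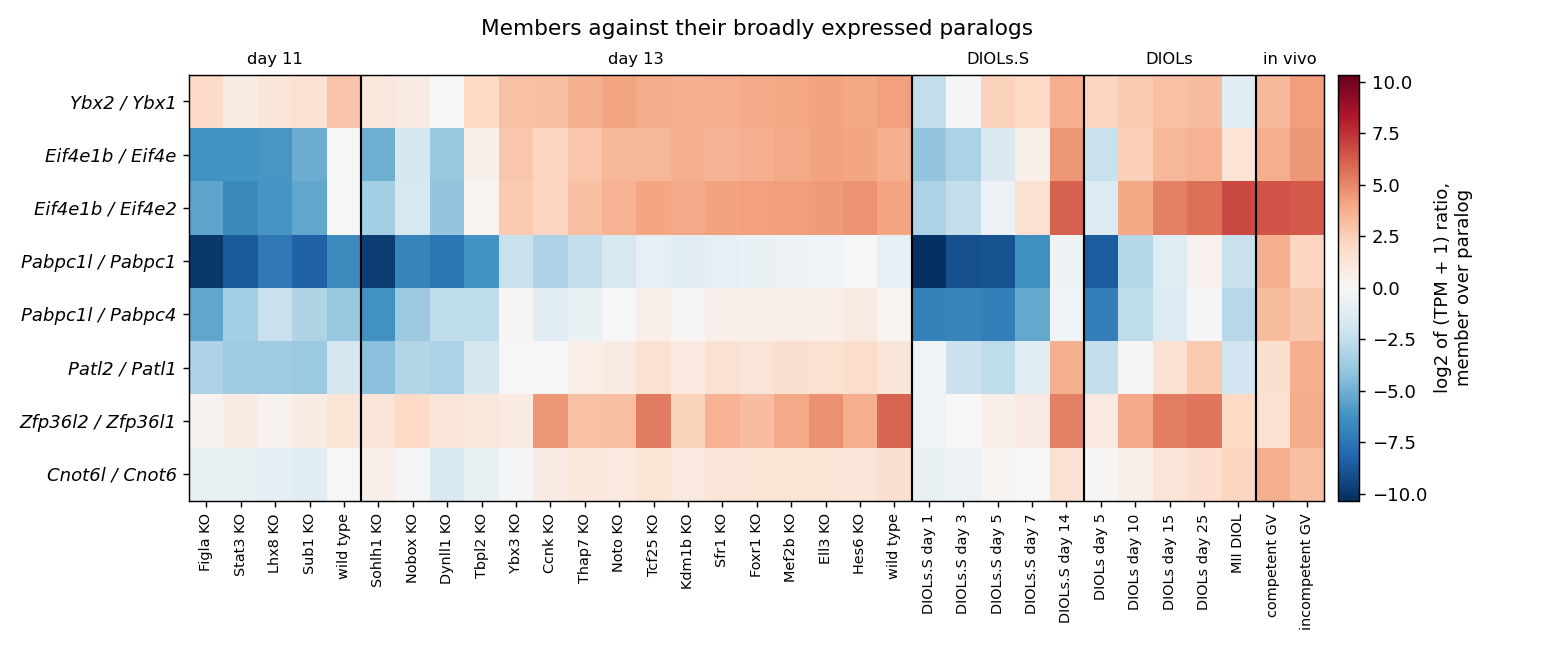
Mean log2 ratio of (TPM + 1) of each gene to a broadly expressed paralog (colour, red where the oocyte gene is higher) in 33 groups, knockouts left of the wild type of their day. Eif4e1b and Patl2 switch from blue to red between wild type of day 11 and day 13, and Pabpc1l is blue in all but DIOLs of day 25 and the GV groups against Pabpc1.

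Across the 33 group means Zar1 and Eif4e1b had the most alike patterns among the members, with a Pearson r of 0.966 on log2 values, followed by Pabpc1l and Patl2 at 0.950. Zfp36l2 and Cnot6l went apart, at -0.576. Many of these groups share wild-type culture conditions or a time course, so the values describe these groups only. Similar patterns were sought among 9290 genes with a mean of at least 10 TPM in some group. Names with Rik or of the form Gm plus digits were left out, and members were not ranked. The pattern most like that of Zar1 belonged to the growth factor gene Gdf9 (0.980), then Rspo2 (0.977) and Aunip (0.970). For Eif4e1b it was that of Gtf2a1l (0.981), Pecr (0.962) and Myo5b (0.962), and for Pabpc1l that of Vwc2 (0.959), Sidt1 (0.958) and Pecr (0.958). Patl2 was nearest to Pecr (0.962), Rasa4 (0.958) and Arrdc1 (0.943), Lsm14b to Phf1 (0.956), Tcl1b2 (0.945) and Oosp1 (0.943), and Ybx2 to Sec22a (0.938), Bend5 (0.938) and Sil1 (0.933). Eif4enif1 was nearest to Gdap2 (0.939), Slc6a4 (0.911) and Pgs1 (0.903), Zfp36l2 to Rnd2 (0.933), Mvk (0.928) and Polr3g (0.919), and Cnot6l to Rnf139 (0.938), Map4k5 (0.929) and Arfip1 (0.927).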

How the data were processed

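RNA of mouse oocytes and oocyte-like cells was sequenced from poly(A)-selected, strand-specific libraries, per the labels' protocols. Per the submitters' processing notes, the build was mm10, and the tools named include STAR 2.6.0 and featureCounts 1.6.0. TPM per gene symbol and library were deposited by the authors. How reads that match several genes were counted is not given in the sources used here. Of 15163 lines in the table, which breaks off in its last line, that line and 22 date-like names were dropped, and 80 columns of no sample of the series were not used. The 3 samples of primordial follicle oocytes matched no column by name and were not analysed here, and GV columns were matched to their groups by stage; the number in each name served only as a block.

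Groups were compared with limma 3.58.1 (trend and robust options), on log2(TPM + 1), in R 4.3.3, with Benjamini-Hochberg adjustment over all genes of a comparison. In vitro oocytes made up 1 fit (42 libraries, 21 groups, 12306 genes) and DIOLs with GV oocytes another (26 libraries, 12 groups, 11603 genes); wild type of day 13 against GV oocytes used all 68 libraries (12689 genes). A gene entered a fit when 2 or more of its libraries reached 1 TPM, and all 9 members passed in every fit. Calls needed a log2 change of 1 or more in size and an adjusted p below 0.05. In the other genes of the pathway (69 of 103 symbols measured) up to 4 called genes with the largest change were named per comparison, for the larger comparisons only. A share of all genes called in 1 direction is given only where a member was called in that direction. Counts of the other genes in the opposite direction have no such share beside them. Similarity is Pearson's r of log2(mean TPM + 1) over groups. Steps were tested on simulated data. Members, gene lists and alternatives were chosen with earlier results of these data known. The results were recomputed after rescaling (median of ratios), with a smaller pseudocount (0.1), without the filter, with replicate numbers as a block, in 1 fit of all libraries, without Sohlh1 knockout libraries, and leaving out each library. A crossed block for DIOLs.S was added after seeing the data.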

Additional observations from a re-analysis of the deposited data

How the results depend on the processing

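No called log2 change of a member changed sign. Of 130 changes set beside each alternative, 105 kept their side of the threshold after rescaling (19 gained and 6 lost a call), 115 with a pseudocount of 0.1 (1 gained, 14 lost) and 129 without a filter. With each library left out, 489 of 540 stayed, 13 gained and 38 lost a call. Counts of called members moved by over 1.5 times in these comparisons. With a pseudocount of 0.1, 0 members were called in the Ybx3, Ccnk and Thap7 comparisons with wild type and in DIOLs day 25 against day 15, and 1 each in Nobox against Tbpl2 knockout and DIOLs day 15 against day 10. After rescaling, 3 were called in the Ybx3 comparison, 2 in DIOLs.S day 3 against day 1, and 0 in DIOLs.S against DIOLs of day 5. Without the Sohlh1 knockout libraries in the fit, 2 were called in the Ybx3 comparison. With libraries left out in turn the ranges were 1 to 2 for Ybx3 and Ccnk, 0 to 1 for Thap7 and for DIOLs.S against DIOLs of day 5, 1 to 2 for Nobox against Tbpl2, 1 to 3 for DIOLs day 15 against day 10, and 1 to 2 for competent against incompetent GV oocytes. The cause of these moves was not tested.

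The replicate numbers do not pair the in vitro samples (median correlation of same-numbered deviations 0.001 over 210 pairs of groups, from -0.032 to 0.062). In DIOLs it was -0.003, from -0.15 to 0.277. The numbers in the names of the GV columns did not pair competent with incompetent oocytes either (-0.104, -0.004 and -0.044). With the replicate number as a block 127 of 130 changes kept their side: Patl2 in the Stat3 knockout was gained, Zar1 between DIOLs days 10 and 15 was lost (adjusted p = 0.072), and Lsm14b in matured DIOLs against competent GV oocytes missed the fold threshold (0.95). With crossed numbers as the block, DIOLs.S day 7 against day 5 still gave 4 members. Depth is not recorded in TPM, so the precision of levels near or under 1 TPM is unknown.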
